A study of Homo sapiens with 10 samples.

Results

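The plasminogen activators, their cell surface receptor and the serpins reported with them comprised 7 genes. These were PLAU and PLAT, which encode the urokinase and tissue-type activators, PLAUR, the urokinase receptor, and the serpin genes SERPINE2, SERPINB2, SERPINB8 and SERPINA1. They were taken by gene symbol from a list drawn up with earlier results of these data known, and all 7 were found among the 61587 genes of the count table. Of the 7, 6 reached 200 counts over the 10 samples and were tested along with 19006 genes in all, and SERPINB2 did not.

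Expression was measured by bulk RNA-seq in RPTECs, human renal proximal tubular epithelial cells of the RPTEC/TERT1 line, which is immortalised by telomerase. There were 5 samples given 10 Gy of gamma radiation from a caesium-137 source and 5 mock-irradiated controls, and RNA was collected on day 7. Both groups have replicates 1 to 5, and samples of the same number were treated as a pair. All samples come from cell line cultures of one immortalised line, without the stroma, vessels or blood of a kidney. The depth, as total counts, was 78081911 to 131555873 in controls and 66269311 to 101594948 in irradiated samples, and irradiated replicate 2 had the fewest. Levels of a gene across samples are given as CPM, the counts scaled to a common library size after TMM normalisation. Adjusted p-values are from edgeR's quasi-likelihood test over all genes tested, with the pair as a block.

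Plasminogen activators are serine proteases that cut the inactive plasminogen into plasmin, which degrades fibrin and can act on matrix proteins and latent growth factors. Urokinase works largely at the cell surface, held there by its receptor, whereas the tissue-type enzyme is best known for dissolving fibrin clots. Serpins are inhibitors that trap a protease irreversibly, and each has its preferred targets. Urokinase is made by tubular epithelium in the healthy kidney and is shed into urine.

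The cells kept an epithelial profile with a part of the proximal tubule programme. All 5 epithelial markers were tested, with KRT19 the most abundant per kilobase of exon, and 9 of 13 proximal tubule markers were tested, led by PAX8 on the same scale. The uptake receptor LRP2 (megalin) had 17 counts over all samples, HNF4A had 12, the phosphate transporter SLC34A1 86 and the organic anion transporter SLC22A6 1. CDKN1A, the p53 target that halts the cell cycle, stood at 102 ± 59.3 CPM (SD, n = 5) in controls and 698 ± 68.9 in irradiated samples (log2 fold change 2.92, SE 0.24, adjusted p = 9.11e-05). MKI67, a proliferation marker, stood at 161 ± 85.3 and 24.0 ± 5.31 CPM (log2 fold change -2.57, SE 0.39, adjusted p = 0.00141). The 5 control samples did not form one cluster for MKI67. Replicates 1 and 3 had 76.7 and 60.4 CPM, against 220.2 in replicate 2, 234 in replicate 4 and 216 in replicate 5.

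All 6 genes tested were higher after irradiation. The change ran from 1.90-fold for SERPINA1 to 14.8-fold for PLAT, and 5 of the 6 exceeded 2-fold. Among all 19006 genes 46.6% were called in either direction at an adjusted p under 0.05, 23.9% were called higher and 5.26% were called higher by more than 2-fold. For each of the 6 genes the lowest irradiated sample lay above the highest control, which held for 14.6% of all genes tested, and the irradiated sample was the higher in all 5 pairs, which held for 26.4%. The median log2 fold change of the 6 was 1.66, against -0.00983 over all genes tested. Because the genes were chosen with earlier results of these data known, these shares and medians are no test of the group. In bulk RNA a change in the number of cells that express a gene cannot be told apart from a change in RNA per cell.

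**Figure D1:**
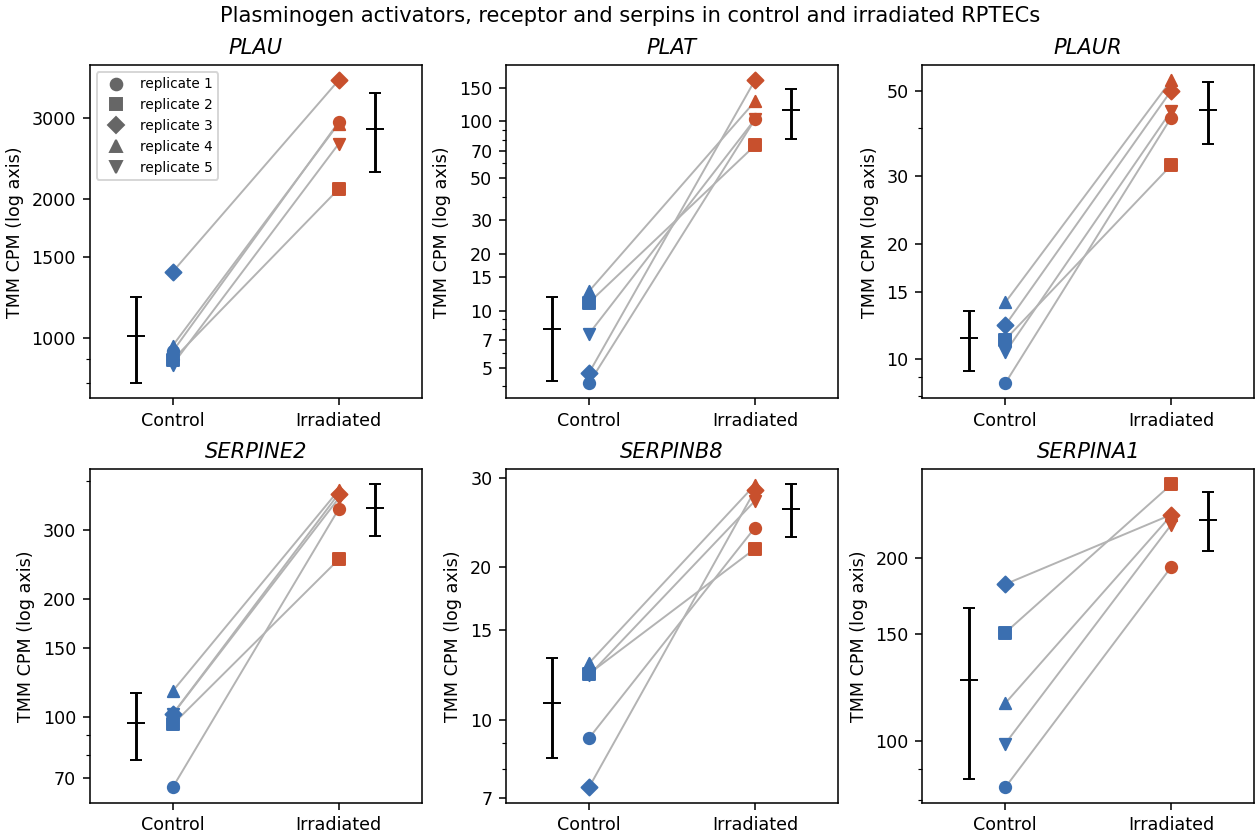
Each panel plots one gene in TMM CPM on a log axis, with control samples in blue and irradiated samples in orange, a symbol for each replicate number and a grey line joining each pair. Black bars are the mean and SD of each group (n = 5). In every panel the 5 irradiated samples lie above the 5 controls, with the narrowest gap for SERPINA1.

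PLAU encodes urokinase, the activator bound by PLAUR. It lies at chr10:73909177-73917496 on the plus strand (GRCh38). Control samples held 935, 896, 1390.1, 962 and 876 CPM in replicates 1 to 5, and irradiated samples held 2931, 2101, 3611, 2910.0 and 2630.3. Replicate 3 was the highest of both groups, and the groups were far apart. The means were 1012 ± 214 and 2837 ± 547 CPM (SD, n = 5), a log2 fold change of 1.49 (SE 0.08, 2.8-fold, adjusted p = 2.06e-05). The change within a pair was 1.65, 1.23, 1.38, 1.60 and 1.59 on the log2 scale. PLAU took 0.0898% to 0.134% of all counts in control samples and 0.212% to 0.331% in irradiated samples. Of its exon bases, 31.0% lie under exons of C10orf55 on the opposite strand, where counting without strand loses reads, so the level of PLAU may be read too low. C10orf55 itself carried between 0.114% and 0.365% as many counts as PLAU.

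RefSeq gives PLAU more than one start. The window from 250 bases before to 50 after the second start is printed because its matches cluster near the start, in GRCh38.p14, on the plus strand, at chr10:73910882-73911181. Capitals mark GGGCGG, the SP1 motif searched on both strands, with 3 matches that begin 66, 51 and 40 bases before the start.
PLAU promoter 2: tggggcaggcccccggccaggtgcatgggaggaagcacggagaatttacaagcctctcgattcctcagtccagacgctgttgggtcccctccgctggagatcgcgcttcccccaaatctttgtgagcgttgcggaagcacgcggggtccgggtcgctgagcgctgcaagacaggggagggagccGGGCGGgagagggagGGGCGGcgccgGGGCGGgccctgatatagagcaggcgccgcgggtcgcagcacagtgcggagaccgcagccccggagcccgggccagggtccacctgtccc
GGGCGG occurred in 45.0% of the 35116 promoter windows in RefSeq. The other motifs searched were TGANTCA for AP-1, TGACGTCA for CRE and TATAAA for the TATA box. An NF-kB motif was searched too, but it can overlap GGGCGG and 58.7% of all windows hold it, so it is not marked by capitals of its own. Neither PLAU window held TGANTCA, TGACGTCA or TATAAA. A match to these letters is a description of the sequence and no measure of binding.

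PLAT, the tissue-type activator, had the largest change of the group and ranked 34 by log2 fold change among the 19006 genes. Its control samples held 4.13, 11.0, 4.68, 12.6 and 7.54 CPM in replicates 1 to 5. Its irradiated samples held 102, 74.4, 164, 127 and 102 CPM. The controls thus spanned a 3-fold range, with replicates 1 and 3 lowest, and the highest was still far below every irradiated sample. The means were 7.9985 ± 3.77 and 114 ± 33.8 CPM (SD, n = 5), a log2 fold change of 3.89 (SE 0.35, adjusted p = 0.000121). With pairs 1 and 3 both left out, the log2 fold change of PLAT was smaller, at 3.26. Within pairs the log2 change was 4.62, 2.76, 5.13, 3.33 and 3.76, and it exceeded the change of every other tested gene of the group in 5 of 5 pairs. The difference from PLAU was 2.43 log2 units (SD 0.922, n = 5 pairs), and no test was made of it.

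PLAUR anchors urokinase to the membrane by a lipid tail. It lies at chr19:43646095-43670547 on the minus strand. Control samples held 8.65, 11.2, 12.3, 14.1 and 10.4 CPM, and irradiated samples 42.6, 32.0, 50.1, 53.3 and 44.4 CPM. The lowest irradiated sample, replicate 2, was well above the highest control, replicate 4. The means were 11.3 ± 2.02 and 44.5 ± 8.19 CPM (SD, n = 5), a log2 fold change of 1.97 (SE 0.11, 3.92-fold, adjusted p = 2.13e-05). The receptor changed by more than its ligand PLAU in 5 of 5 pairs, by 0.48 log2 units on average (SD 0.176).

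The window around the RefSeq start of PLAUR is printed for the single match to TGANTCA among the activators and receptor whose windows were searched. It lies on the minus strand at chr19:43670120-43670419, and the capitals mark that match, which begins 186 bases before the start.
PLAUR promoter: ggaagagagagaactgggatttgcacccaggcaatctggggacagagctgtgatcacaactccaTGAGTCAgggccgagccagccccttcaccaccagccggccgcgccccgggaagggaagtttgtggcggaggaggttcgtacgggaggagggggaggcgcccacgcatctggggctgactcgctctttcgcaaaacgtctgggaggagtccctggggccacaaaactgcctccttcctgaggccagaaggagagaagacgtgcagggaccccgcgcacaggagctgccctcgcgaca
TGANTCA occurred in 7.71% of all promoter windows. The window held no TATAAA, TGACGTCA or GGGCGG.

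SERPINE2 encodes protease nexin-1, a secreted inhibitor of thrombin, urokinase and tissue-type activator that is cleared from the surface by LRP1. It lies at chr2:223975045-224039318 on the minus strand. Control samples held 66.2, 95.8, 102, 116 and 102 CPM, and irradiated samples 339, 252, 371, 379 and 361 CPM. Replicate 2 was again the lowest irradiated sample. The means were 96.4 ± 18.5 and 341 ± 51.5 CPM (SD, n = 5), a log2 fold change of 1.83 (SE 0.12, 3.55-fold, adjusted p = 4.2e-05). SERPINE2 and PLAUR moved closely together, with changes that differed by 0.138 log2 units on average (SD 0.125, PLAUR larger in 4 of 5 pairs).

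SERPINB8 and SERPINB2 belong to the ov-serpins, which lack a classical signal peptide and are largely found inside cells. SERPINB2 is plasminogen activator inhibitor 2, and SERPINB8 is an inhibitor of furin. Their genes lie in one serpin cluster on chromosome 18, with SERPINB2 at chr18:63871692-63903888 and SERPINB8 at chr18:63970029-64019779, both on the plus strand. SERPINB8 had 9.20, 12.3, 7.36, 12.9 and 12.2 CPM in control samples and 23.9, 21.7, 28.3, 29.0 and 27.0 CPM in irradiated samples. Controls 1 and 3 were again the lowest, and the groups did not overlap. The means were 10.8 ± 2.41 and 25.99 ± 3.09 CPM (SD, n = 5), a log2 fold change of 1.29 (SE 0.14, 2.44-fold, adjusted p = 0.000341). Of its exon bases 6.4% lie under other genes of the same strand and 2.7% under the opposite strand.

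SERPINB2 was not detectable as expressed at this depth. It had 1 count in control replicate 5, 1 in irradiated replicate 3 and 0 in each of the other samples. A count of 0 allows up to 3 counts, or between 0.0215 and 0.0448 CPM depending on the library, and this covers counting error only. Of its exon bases 20% lie under other genes of the same strand, where reads are lost. The rest of the cluster was also nearly silent. Of the 10 serpin genes on chromosome 18, SERPINB8 was the only one tested and 8 had fewer than 20 counts over all samples. The nearest serpin gene to each is SERPINB10, which begins 4070 bases from SERPINB2 and ends 33918 bases from SERPINB8.

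The windows of these 2 genes are printed because both hold TGANTCA and TATAAA while only one gene was detected. They lie on the plus strand at chr18:63969831-63970130 for SERPINB8 and chr18:63887455-63887754 for SERPINB2, and capitals mark both motifs.
SERPINB8 promoter: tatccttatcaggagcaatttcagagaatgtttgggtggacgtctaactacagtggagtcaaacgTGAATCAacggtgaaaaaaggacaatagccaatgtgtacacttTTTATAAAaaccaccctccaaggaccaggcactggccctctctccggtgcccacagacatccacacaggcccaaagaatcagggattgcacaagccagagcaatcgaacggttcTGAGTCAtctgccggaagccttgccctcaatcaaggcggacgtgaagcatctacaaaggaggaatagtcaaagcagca
SERPINB2 promoter: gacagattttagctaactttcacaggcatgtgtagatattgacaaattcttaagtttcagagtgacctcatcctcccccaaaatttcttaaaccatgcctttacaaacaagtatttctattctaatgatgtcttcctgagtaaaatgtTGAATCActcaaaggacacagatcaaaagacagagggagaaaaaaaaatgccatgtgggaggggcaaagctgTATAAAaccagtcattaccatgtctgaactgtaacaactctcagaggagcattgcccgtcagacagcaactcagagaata
SERPINB8 has TGANTCA beginning 185 and 28 bases before its start. SERPINB2 has it 102 bases before its start, with TATAAA 30 bases before it. In SERPINB8 the TATAAA match overlaps one on the other strand and lies 140 bases before the start. TATAAA occurred in 11.5% of all windows. The windows searched for SERPINE2 and SERPINA1 held neither TGANTCA nor TATAAA.

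SERPINA1 encodes alpha-1-antitrypsin, the main inhibitor of neutrophil elastase, made chiefly in liver and also by some epithelia. It lies at chr14:94376747-94390693 on the minus strand. Control samples held 83.8, 151, 181, 115 and 98.97 CPM, and irradiated samples 194, 265, 236, 236 and 227 CPM. The highest control, replicate 3, lay just under the lowest irradiated sample, replicate 1. The means were 126 ± 39.7 and 232 ± 25.5 CPM (SD, n = 5), a log2 fold change of 0.93 (SE 0.12, 1.90-fold, adjusted p = 0.000625). Its pairs gave log2 changes of 1.21, 0.812, 0.381, 1.03 and 1.20, so that pair 3 was the smallest. None of 4 hepatocyte markers was tested, and their summed level was 0.0464 to 0.147 CPM in controls and 0.0755 to 0.161 CPM in irradiated samples, with ALB at 59 and APOA1 at 35 counts over all samples and TTR and FGB under 5 counts each.

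**Figure D2:**
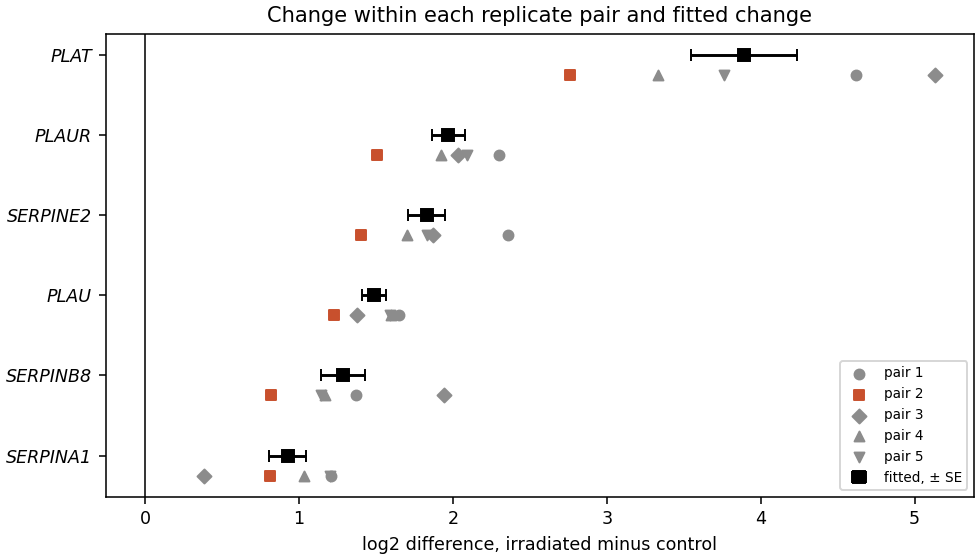
The log2 change from control to irradiated sample is plotted for each gene (1 point per pair, pair 2 in orange) with the fitted log2 fold change and its SE as a black square and bar, on an axis in log2 units. All points lie above 0, PLAT lies highest in every pair, and pair 2 is the lowest point for 5 of the 6 genes.

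The pairs did not contribute equally. Pair 2 gave the smallest change for PLAU, PLAT, PLAUR, SERPINE2 and SERPINB8, while pair 3 did so for SERPINA1. Pair 1 gave the largest change for 4 genes and pair 3 for the other 2. The same tendency was seen among the 4550 genes called higher, whose median log2 difference was 0.365 in pair 2 and 0.484 to 0.571 in the other pairs. Over all genes tested the median was 0.0218 in pair 2 and -0.0253 to 0.00134 in the other pairs. The scaling places that median near 0 in every pair, so it cannot show whether pair 2 changed less. Genes called lower were not examined by pair. Without pair 2 the log2 fold change was 4.19 for PLAT and 1.56 for PLAU.

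The activators are compared in level only per kilobase of exon (CPM per kb). PLAU was far the most abundant of the group in every sample, at 343 ± 72.6 CPM per kb in controls and 962 ± 186 in irradiated samples (SD, n = 5), which ranked it 49 and 20 among all genes tested. In controls it was followed by SERPINA1 at 25.7 ± 8.10, SERPINE2 at 10.8 ± 2.07, PLAUR at 2.54 ± 0.453, SERPINB8 at 1.88 ± 0.419 and PLAT at 1.03 ± 0.485 CPM per kb. In irradiated samples SERPINA1 stood at 47.2 ± 5.21, SERPINE2 at 38.0 ± 5.75, PLAT at 14.7 ± 4.34, PLAUR at 9.98 ± 1.84 and SERPINB8 at 4.51 ± 0.536 CPM per kb. PLAT therefore moved from the lowest of the 6 to above PLAUR and SERPINB8, or from rank 12185 to rank 2761 among all genes tested. By mean ± SD, PLAUR and SERPINB8 overlapped in controls, as did SERPINB8 and PLAT. In irradiated samples SERPINA1 and SERPINE2 overlapped, as did PLAT and PLAUR, so these neighbours do not differ beyond their spread over samples. Within each library, however, the order was the same in all 5 samples of the group, with PLAUR above SERPINB8 and SERPINB8 above PLAT in controls, and SERPINA1 above SERPINE2 and PLAT above PLAUR in irradiated samples.

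**Figure D3:**
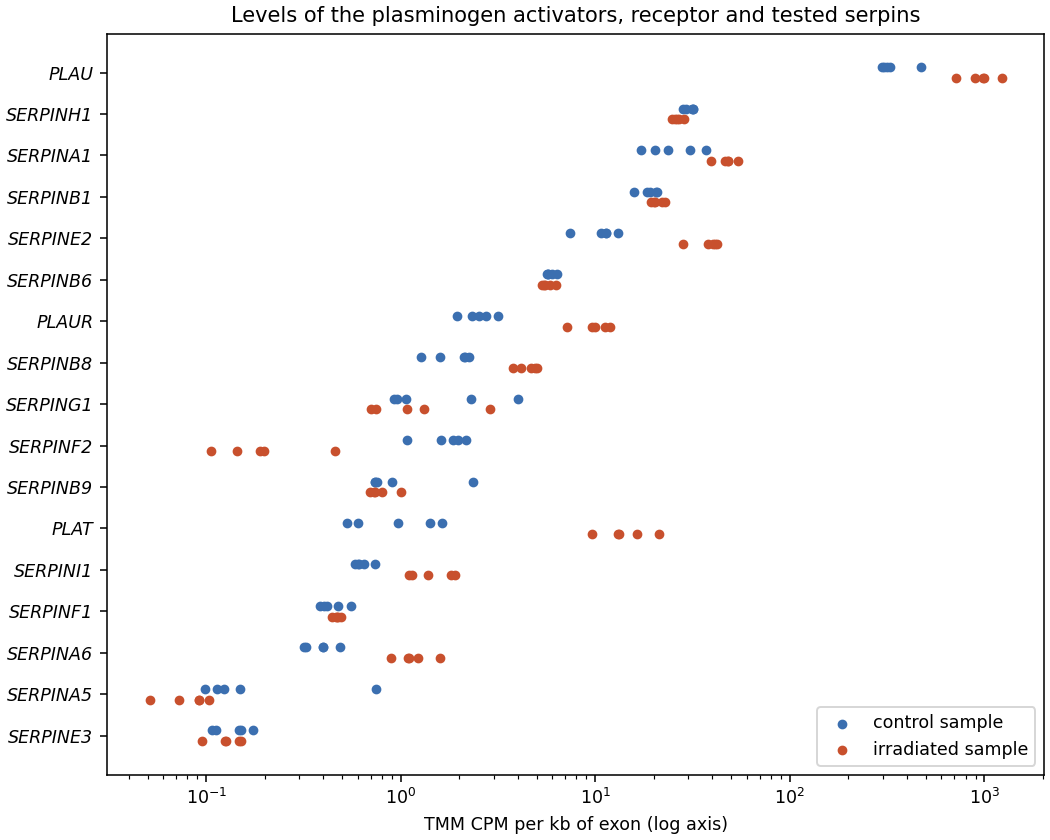
Levels in CPM per kb of exon are plotted on a log axis for the 6 tested genes and for other tested serpins, with a point per sample, controls in blue and irradiated samples in orange. PLAU lies above every other gene shown in both groups, and PLAT has the widest gap between its groups.

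Of the ratios taken between genes, 4 are given here with both groups. The ratio of PLAU to PLAT per kb ranged from 200 to 782 in controls (median 306) and from 57.9 to 75.6 in irradiated samples (median 67.8), with no overlap. The ratio of the inhibitor SERPINE2 to PLAT went from a median of 11.7 (7.55 to 18.9) to 2.88 (1.96 to 3.07), also without overlap. PLAU to its receptor PLAUR had a median ratio of 127 in controls (103 to 171) and 99.1 in irradiated samples (82.5 to 109), and these ranges overlapped, but the ratio was lower in the irradiated sample of 5 of 5 pairs. PLAU to SERPINE2 was 28.4 (25.1 to 42.9) and 25.3 (22.1 to 29.6), with overlap between the groups and again a lower ratio in the irradiated sample of 5 of 5 pairs. The size of these ratios depends on the exon length used. With the longest transcript the medians in control and irradiated samples were 151 and 33.5 for PLAU to PLAT, 50.9 and 39.7 for PLAU to PLAUR, 21.1 and 18.8 for PLAU to SERPINE2 and 7.8 and 1.92 for SERPINE2 to PLAT. These ratios are mRNA levels and were not tested.

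Plasminogen itself, PLG, fell after irradiation from an already low level. Control samples held 132, 74, 17, 76 and 76 counts, and irradiated samples 14, 3, 2, 0 and 3. The log2 fold change was -3.94 (SE 0.37, adjusted p = 0.000162). PLG reached the minimum count for testing through its control samples. All irradiated samples but replicate 1 held 3 counts or fewer, which is no more than a count of 0 allows. The values therefore show the direction of the change, but its size is not well fixed. At most 1.61 CPM of PLG was seen in any sample, in control replicate 1. Of the 24 genes listed for plasminogen, its receptors, clearance receptors and other partners, 18 were tested, 6 were called higher, 3 lower and 9 were not called. Their median log2 fold change was 0.119, beside 23.9% of all genes called higher and 22.7% called lower. None of the 6 exceeded 2-fold, while 2 of the 3 called lower did (PLG and MRC2), beside 4.06% of all genes called lower by more than 2-fold. They were ANXA2 and S100A10, whose products form a plasminogen-binding complex at the cell surface, the clearance receptor LRP1, its chaperone LRPAP1, the sorting receptor SORL1 and the protease inhibitor SPINT2. ENO1, also a surface binding site for plasminogen, was the most abundant of the list at 624 ± 51.5 and 564 ± 41.5 CPM per kb (log2 fold change -0.14, adjusted p = 0.0909). ENO1 was not called here, but it was called lower with library size alone (adjusted p = 0.0152), upper-quartile factors (0.0381), DESeq2 (0.0235), limma-voom (0.0456), a minimum of 1 count (0.0205) or pairs 1 and 3 left out (0.032). Without the block, LRP1, LRPAP1 and SORL1 were not called (adjusted p = 0.135, 0.159 and 0.135), and SORL1 was also lost without pair 1, 2, 4 or 5 (0.0598 to 0.0901) and LRPAP1 without pair 4 (0.0553). With library size alone SORL1 (0.0657) and LRPAP1 (0.101) were not called, nor was LRPAP1 with a minimum of 1 count (0.141).

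MRC2, an endocytic collagen receptor that associates with PLAUR, fell. Control samples held 150.2, 195, 184, 208 and 194 CPM, and irradiated samples 79.8, 128, 73.2, 85.0 and 92.6 CPM. No irradiated sample reached the lowest control. The log2 fold change was -1.04 (SE 0.10, adjusted p = 0.000191), and 10.3% of MRC2 exon bases lie under the opposite strand. HGFAC, the activator of hepatocyte growth factor, was the remaining gene called lower (log2 fold change -0.56, adjusted p = 0.0316). It was not called without pair 1, 3 or 4 (adjusted p = 0.115, 0.0628 and 0.0997) or without the block (0.32).

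Of 31 other serpins listed, 12 were tested, 3 were called higher, 4 lower and 5 were not called, with a median log2 fold change of -0.0783. Of all genes tested, 23.9% were called higher and 22.7% lower. All 3 called higher and 2 of the 4 called lower exceeded 2-fold, beside 5.26% and 4.06% of all genes tested. SERPINA6, which encodes corticosteroid-binding globulin, stood at 0.711 ± 0.125 and 2.18 ± 0.481 CPM (log2 fold change 1.61, SE 0.12, adjusted p = 6.85e-05). SERPINI1, neuroserpin, an inhibitor of tissue-type activator, stood at 1.36 ± 0.134 and 3.12 ± 0.785 CPM (log2 fold change 1.17, SE 0.14, adjusted p = 0.000393).

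SERPINF2 encodes alpha-2-antiplasmin, the main inhibitor of plasmin. It held 5.10, 4.37, 4.60, 2.52 and 3.76 CPM in control samples and 0.464, 1.07, 0.248, 0.337 and 0.441 CPM in irradiated samples. The groups were well apart, and irradiated replicate 2 was the highest of its group. The log2 fold change was -3.08 (SE 0.28, adjusted p = 0.000126). SERPINA5, the protein C inhibitor, was also called lower (log2 fold change -1.23, SE 0.41, adjusted p = 0.0391), but control replicate 3 held 2.81 CPM against 0.369 to 0.558 in the other controls. Without pair 3 its log2 fold change was -0.62, and it was no longer called without pair 4 (adjusted p = 0.0706), without pair 5 (0.084) or without the block (0.0502). SERPING1, the C1 inhibitor, and SERPINH1, a collagen chaperone with no known protease target, were the others called lower. SERPING1 (adjusted p = 0.0411) was not called without pair 1, 3, 4 or 5 (0.136, 0.0861, 0.104 and 0.123) or without the block (0.497). SERPINH1 was the most abundant of these serpins at 30.4 ± 1.56 and 26.4 ± 1.44 CPM per kb (log2 fold change -0.20, adjusted p = 0.00631).

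Among 17 genes of cell surface coagulation, 12 were tested, 5 were called higher, 2 lower and 5 were not called, with a median log2 fold change of 0.0234, beside 23.9% of all genes tested called higher, 22.7% called lower and 5.26% called higher by more than 2-fold. The 2 called higher by more than 2-fold were both scarce, and none was lower by more than 2-fold. F5, coagulation factor V, stood at 0.475 ± 0.294 and 3.80 ± 0.978 CPM (log2 fold change 3.10, SE 0.23, adjusted p = 5.91e-05). THBD, thrombomodulin, stood at 0.674 ± 0.318 and 3.54 ± 1.12 CPM (log2 fold change 2.44, SE 0.27, adjusted p = 0.000299). Also called higher were GAS6, a ligand of TAM receptors, TFPI2, a plasmin and tissue factor pathway inhibitor, and F3, tissue factor. The thrombin receptor F2R and the related F2RL1 were called lower. F2R was not called without pair 3, 4 or 5 (adjusted p = 0.0534, 0.0934 and 0.101) or without the block (0.251), and F3 was not called without pair 1 (0.0705) or without the block (0.0941). F2RL1 was the most abundant of the list at 76.8 ± 10.7 and 66.4 ± 8.60 CPM per kb (log2 fold change -0.21, adjusted p = 0.0271). It was not called without pair 2, 4 or 5 (adjusted p = 0.075, 0.0965 and 0.112) or without the block (0.168).

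**Figure D4:**
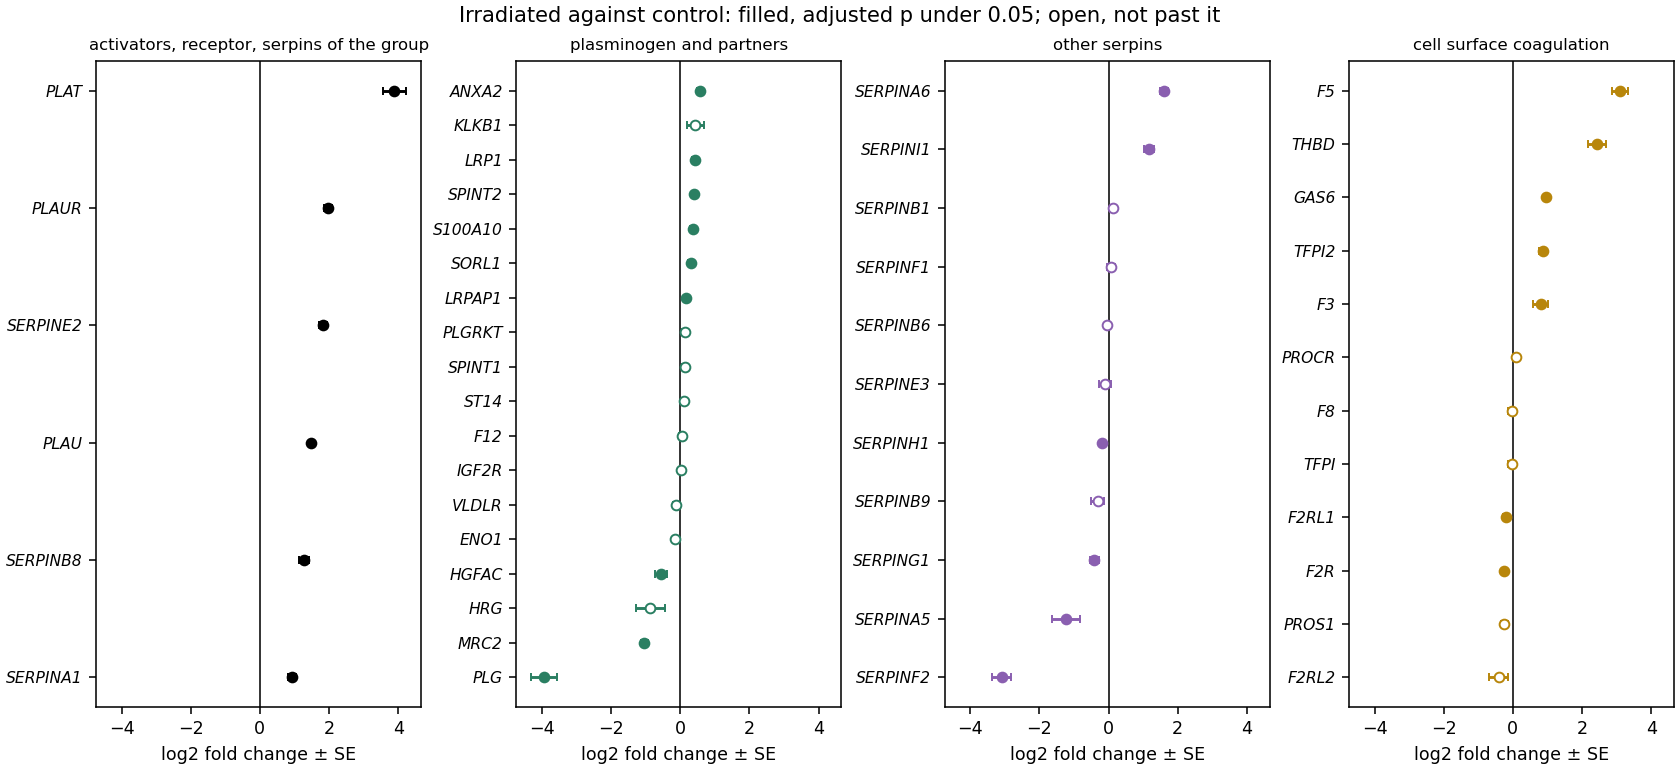
The fitted log2 fold change is plotted for the 6 genes and for tested genes of the lists of partners, other serpins and cell surface coagulation, with the SE as a bar, called genes as filled points and the others as open points. The 6 genes all lie above 0, while each of the other lists lies on both sides of 0 with a median near it. Genes and lists were chosen with earlier results known, so the contrast between lists is a description only.

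Markers of other cell types were mostly scarce, apart from COL1A1, and some of them moved with irradiation. Among all genes tested 23.9% were called higher. Of 6 fibroblast markers, COL1A1 and DCN were tested and both were called higher, with COL1A1 the most abundant and COL3A1 and LUM under 5 counts. DCN reached the minimum count for testing through its irradiated samples. It held 9 to 73 counts in controls and 45 to 298 in irradiated samples, the most in irradiated replicate 2, and the groups overlapped. The summed level of the fibroblast markers was 15.8 to 23.4 CPM in controls and 28.4 to 39.9 CPM in irradiated samples. Of 4 endothelial markers 3 were tested, CDH5 and PECAM1 rose and KDR had 2 counts, with sums of 1.28 to 2.40 CPM in controls, where PECAM1 had the highest mean CPM, and 4.15 to 6.06 CPM in irradiated samples, where CDH5 was. Of 6 leucocyte markers 2 were tested, ITGAM rose and CD3E had 3 counts. ITGAM reached the minimum count for testing through its irradiated samples. It held 2 to 11 counts in controls and 58 to 157 in irradiated samples, so no size is given for its rise. The leucocyte sums were 0.411 to 0.843 CPM in controls, where PTPRC had the highest mean CPM, not corrected for length. They were 1.31 to 2.19 CPM in irradiated samples, where ITGAM had the highest. Of 5 squamous epithelial markers only TP63 was tested and it was not called, with IVL and SPRR1B at 1 count each. The part of these markers in the changes of the activators and serpins was not tested.

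Control samples 1 and 3 stood apart. The summed level of 6 cell cycle markers was 215 CPM in control 1 and 198 CPM in control 3, against 550 to 583 CPM in the other controls and 118 to 160.0 CPM in irradiated samples. PLAT and SERPINB8 were lowest in these controls, so they lay farther from the irradiated samples there than in controls with more MKI67. PLAU, by contrast, was highest in control 3. With pairs 1 and 3 both left out, the log2 fold change was 1.45 for PLAU, 3.26 for PLAT, 1.83 for PLAUR, 1.63 for SERPINE2, 1.03 for SERPINB8 and 0.997 for SERPINA1, all 6 still called (highest adjusted p = 0.000141). The part of proliferation in these changes was not tested.

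**Figure D5:**
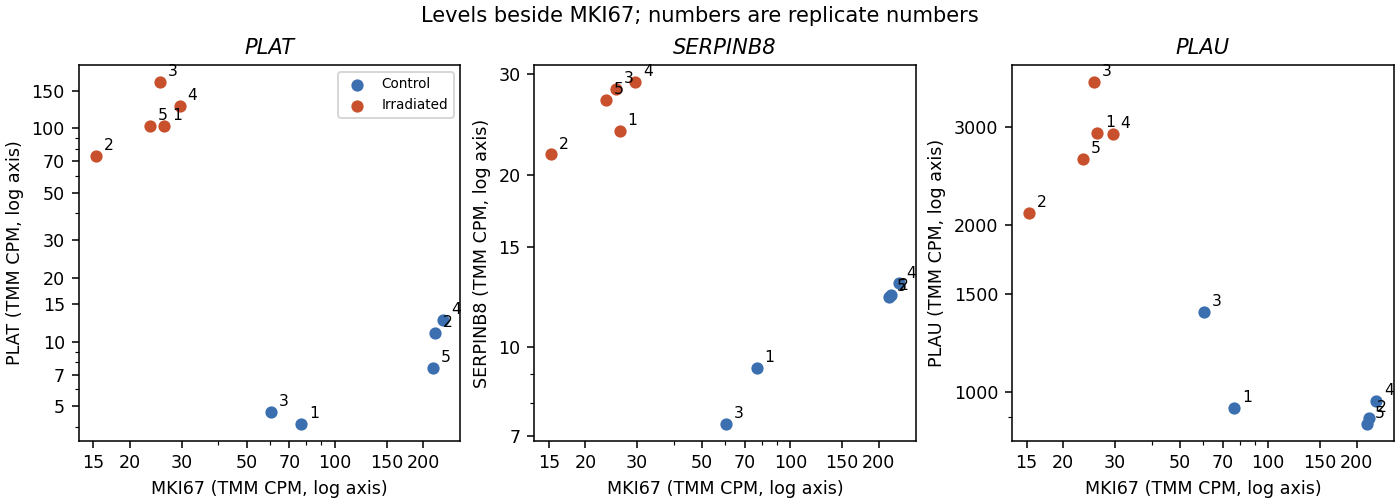
Levels of PLAT, SERPINB8 and PLAU are plotted against MKI67 in each sample (TMM CPM, both axes log), controls in blue and irradiated samples in orange, with replicate numbers. Controls 1 and 3 have lower MKI67 than the other controls, and there PLAT and SERPINB8 are at their lowest.

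The 6 genes varied together only in part once the group means had been removed. Pearson's r over the 10 samples was then 0.924 for PLAUR and SERPINE2 and 0.861 for PLAT and SERPINB8, but 0.0684 for PLAU and PLAT and -0.278 for PLAU and SERPINB8. Samples share library depth and pairs, and these are descriptions.

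Among 12840 genes with a mean of at least 1 log2 CPM, those most like each of the 6 in pattern over the 10 samples were as follows, with the correlation after removal of the group means given second. KLF6, a zinc finger transcription factor, was closest to PLAU (r = 0.9963 and 0.992), followed by NECAP2 and CD74, the invariant chain of MHC class II. PLAT was closest to the gene ENSG00000287929 (r = 0.9989 and 0.984), followed by TGFA, an EGF receptor ligand, and APCDD1L. PLAUR was closest to PIK3CD, a phosphoinositide 3-kinase subunit (r = 0.9977 and 0.966), followed by PARP12 and the laminin chain gene LAMB3. Among the genes most like SERPINE2 were KCNIP3 (r = 0.9953 and 0.932) and BTBD7. SERPINB8 was closest to NSFL1C (r = 0.9961 and 0.977), followed by C12orf75-AS1 and ATP8A2. SERPINA1 was closest to the chemokine gene CCL2 (r = 0.9876 and 0.979), followed by FOXO1, a forkhead transcription factor, and MPZL2. CCL2 stood at a mean of 39.2 CPM in controls and 79.3 CPM in irradiated samples, and LAMB3 at 172 and 779 CPM.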

How the data were processed

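RNA was sequenced from 10 samples, 5 irradiated and 5 control, grouped by the labels. Per the study's methods, reads were trimmed with Trim-Galore, aligned to GRCh38 with STAR and counted on GENCODE genes, and the authors deposited them as raw gene counts, neither filtered nor normalised. The methods and the labels name different library kits, and the cell line label ends in a different number in each sample, whereas the series text names RPTEC/TERT1. Separate cultures are not stated, so p-values measure the spread between these samples.

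Counts were analysed with edgeR 4.0.16 in R 4.3.3 (TMM, glmQLFit and glmQLFTest, a minimum of 200 counts summed over the samples), with replicate number as a block as the study did. P-values were adjusted over all 19006 genes by Benjamini-Hochberg with a threshold of 0.05, and every adjusted p in the text is from this fit unless named. The SE was obtained from the log2 fold change and the F statistic. The same number pairs the samples, because deviations from the group means correlated above 0.1 in each of the 5 pairs (r = 0.2171 to 0.5079). Samples of different number gave r of -0.3545 to 0.3174 (median -0.12945), so the 2 ranges overlap. No replicates agreed within sampling noise (chi-square per gene 8.527 or more). The smallest values were those between numbers 4 and 5, at 15.17 for controls and 8.527 for irradiated samples. Every other combination gave 57.26 or more in controls and 40.5 or more in irradiated samples. Control 4 with irradiated 5 gave r of 0.2952 and control 5 with irradiated 4 gave 0.3174, above the 0.2171 of pair 2. The fit counts pairs 4 and 5 as separate, and their independence was not tested. TMM factors lay between 0.9154 and 1.063. On simulated data with 19006 genes the irradiated against control test recovered 100% of 2-fold rises and 74% of 1.5-fold rises. It recovered 98% of 2-fold falls and 62% of 1.5-fold falls, with 8 false calls. The simulation gave every gene the same small dispersion and had no pair effects. Few genes were changed in it, equally many up and down. Some real genes varied more, such as PLAT with a coefficient of variation of 47.1% in controls. These rates therefore describe the simulated setting and need not hold for the real samples.

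Exon lengths and overlaps come from GENCODE v44, and promoter windows from RefSeq, in which 6 of the 7 genes were used. Of protein-coding genes, all 13 fully covered by exons on the other strand were at 0 counts, as were 9.3% of 10506 without overlap, so counts were treated as unstranded. PAR_Y rows (46) held 8 counts.

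The genes and lists were chosen with earlier results of these data known. Named genes are the 7, CDKN1A and MKI67, list genes called by more than 2-fold, the most abundant of each list and the 3 most correlated with each gene. Other list genes are named for their calls, and a few genes chosen by these rules are counted in totals but not reported or drawn here. Alternatives were other scalings, DESeq2 1.42.0, limma-voom (limma 3.58.1), other count minimums, no block and samples left out. Leaving out pairs 1 and 3 together was chosen after seeing the data. Figures were drawn with matplotlib 3.10.9.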

Additional observations from a re-analysis of the deposited data

Results flagged for a closer look

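Within a group of 5 samples, 5 values stood far from the other samples, among 40 groups examined over 21 genes, where chance would give about 2. PLAU in control replicate 3 was 1390.0 CPM, against 875 to 962 CPM in the other controls. The same sample held the highest CDKN1A of the controls (207 CPM, the others 66.7 to 80.8 CPM) and the highest SERPINA5 (2.81 CPM, the others 0.369 to 0.558 CPM). In irradiated replicate 2, the library with the fewest counts, SERPINF2 was highest at 1.07 CPM (the others 0.248 to 0.464 CPM) and F2RL1 was lowest at 150.0 CPM (the others 199 to 211 CPM).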

How the results depend on the processing

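For the 6 tested genes, the direction and the call held in all 24 alternatives run for each, with log2 fold changes of 1.39 to 1.64 for PLAU, 3.26 to 4.19 for PLAT, 1.83 to 2.09 for PLAUR, 1.63 to 1.95 for SERPINE2, 1.03 to 1.41 for SERPINB8 and 0.76 to 1.07 for SERPINA1. The highest adjusted p was 0.00889 (edgeR, SERPINA1 without control replicate 4 and without the block). Over all values and alternatives, 483 of 520 kept their direction and call or moved little, and none reversed. Without the replicate block, calls over all genes went from 4550 higher and 4307 lower to 3640 and 3366. The partners of plasminogen had 3 genes called higher in place of 6, the other serpins 2 called lower in place of 4 and the coagulation genes 0 called lower in place of 2 in that fit, while all 6 tested members of the group stayed called.

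Scaled by library size alone, 38.0% of called genes were higher, against 51.4% with TMM. With that scaling the partners had 4 genes called higher in place of 6. They had 5 called lower in place of 3 with it, with upper-quartile factors and with a minimum of 1 count. That minimum also gave 1613 genes higher by more than 2-fold in place of 999 and 6 other serpins called higher in place of 3, and filterByExpr gave 5. When 1 pair at a time was left out, the partners had 4 to 8 genes called higher and 2 to 3 lower, the other serpins 2 to 4 lower (2 without pair 4 or pair 5) and the coagulation genes 0 to 2 lower (1 without pair 3, 0 without pair 4 or pair 5). The causes were not tested. With the longest transcript as the length, levels per kb in control and irradiated samples were 2.31 and 33.0 for PLAT, 7.03 and 27.6 for PLAUR, 16.1 and 56.9 for SERPINE2, 3.19 and 7.67 for SERPINB8 and 35.7 and 65.5 for SERPINA1. Depth limits SERPINB2 and PLG, whose values rest on few counts.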

Other observations

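Some serpin genes under the limit of 200 counts had most of their few counts in irradiated samples. SERPINB7, which lies 66316 bases from SERPINB2 on chromosome 18, had 0, 3, 1, 1 and 0 counts in control samples and 32, 11, 66, 32 and 23 in irradiated samples. SERPINA10, an inhibitor of coagulation factor Xa, had 138 counts in all, and SERPINB5, known as maspin, had 17. These 3 genes were chosen after seeing their values, so no test is given for them. The serpins of chromosome 6, SERPINB1, SERPINB6 and SERPINB9, which are intracellular inhibitors like SERPINB8, were all 3 tested and none was called, where 46.6% of all genes tested were called in either direction.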
